A study of Homo sapiens with 30 samples.

Results

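The p53 protein switches on several of the genes that remove it again or turn its signal off, and 7 genes of this negative feedback are described here: MDM2, MDM4, PPM1D, CCNG1, RCHY1, COP1 and USP7. They were chosen by name, with earlier results of these data known. Each of the 7 matched a single row of the raw count table, which holds 39359 genes. All 7 were among the 21335 genes abundant enough to be tested. The table covers 30 RNA-seq libraries from H1299, a human lung carcinoma line that makes no p53 of its own.

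The cells were transfected with a plasmid that expresses GFP alone (pGFP) or GFP together with a p53 that is wild type, the RW mutant, or encoded by DNA with an O6-methylguanine on the transcribed strand (p53 O6-meG). The cultures called p53 TM, for transcriptional mutagenesis, received the same lesion-bearing vector plus O6-benzylguanine (O6-bzG, 10 µM), which inactivates the repair protein AGT. GFP-positive cells were sorted 6 h or 24 h after transfection. Expression ran from a tetracycline-responsive promoter on a plasmid without a mammalian replication origin, in 1 cell line, so that the vector was the source of p53. No other vector was combined with O6-bzG, and the drug and the mutagenesis therefore cannot be told apart in any comparison with p53 TM. Each of the 10 groups was meant to hold 3 biological replicates. The titles of 2 libraries at 6 h each name p53 O6-meG in one place and p53 TM in another, and these 2 were put in no group. The p53 O6-meG and p53 TM groups at 6 h accordingly have n = 2, and all other groups have n = 3.

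Total counts per library ran from 32302699 to 71950532, with a median of 44424643. The cells carried KRT8 (111 to 181 CPM), KRT18 (272 to 720 CPM) and VIM (1930 to 3580 CPM), while EPCAM, CDH1, KRT19 and the lung markers SFTPB, SFTPC and SCGB1A1 reached at most 0.381 CPM and NKX2-1 reached 1.2 CPM. The leukocyte marker PTPRC reached 0.05 CPM, the endothelial markers CDH5 and PECAM1 0.0739 and 0.999 CPM, and the fibroblast markers COL1A2 and COL1A1 0.129 and 1.99 CPM. CPM stands for counts per 1000000 counts of a library, after TMM normalization. CDKN1A, the p53 target that encodes the cell cycle inhibitor p21, served as a check of the vectors: it read 34.1 to 43.6 CPM with pGFP, 37.4 to 46.4 with RW mutant p53 and 242 to 262 with wild type p53 at 6 h. The transcript made from the vectors was not analysed here.

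MDM2 is the main ubiquitin ligase of p53: it binds the transactivation domain of p53 and marks the protein for degradation, and p53 in turn drives MDM2 from a promoter within the gene. MDM4 is its catalytically weak partner, RCHY1 (Pirh2) and COP1 are further ubiquitin ligases of p53, and USP7 removes ubiquitin from MDM2 and from p53. PPM1D (Wip1) is a phosphatase that reverses activating phosphorylation on p53 and on its upstream kinases, and CCNG1 (cyclin G1) brings the phosphatase PP2A to MDM2. MDM2, PPM1D, CCNG1, RCHY1 and COP1 have been described as p53 targets, whereas USP7 and MDM4 are best known for what their proteins do to the pathway.

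To see where p53 could bind near these genes, the first 5000 bases after and the 1000 bases before each annotated start were searched on both strands of GRCh38 for 2 adjacent copies of the p53 half-site consensus with at most 2 mismatches in 20 bases. No mismatch was allowed at the core C or the core G of either half-site. Of the 7 genes, 2 held such a match, MDM2 once and CCNG1 at 2 positions, against 4.49% of 20033 protein-coding genes with at least 1 match and 0.125% with at least 2. The matches are shown because MDM2 and CCNG1 were both higher with wild type p53. Capitals mark the 20 matched bases, on the coding strand, with 5 flanking bases on each side.
MDM2, intron 1, chr12:68808918-68808947: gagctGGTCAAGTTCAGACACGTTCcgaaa
CCNG1, intron 1, chr5:163437921-163437950: tgtgaGCACAAGCCCAGGCTAGTCCgaggc
CCNG1, intron 2, chr5:163439941-163439970: ccttaGACCTAGTCAAGACTTGCTTatgct

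The MDM2 match had 2 mismatches and was centred 756 bases after the annotated gene start, in intron 1. It ended 75 and 82 bases before a pair of RefSeq transcript starts in that intron (RefSeq, GRCh38.p14), and so lies in their promoter windows of 300 bases, where 100 of 35116 such windows genome-wide (0.285%) held a match. The CCNG1 matches had 1 and 2 mismatches and were centred 367 and 2387 bases after the start. The surrounding 144 intronic bases of MDM2, chr12:68808858-68809001 on the plus strand, overlap no annotated exon and are shown as the stretch upstream of these internal starts, again with the match in capitals.
MDM2 intron 1 window: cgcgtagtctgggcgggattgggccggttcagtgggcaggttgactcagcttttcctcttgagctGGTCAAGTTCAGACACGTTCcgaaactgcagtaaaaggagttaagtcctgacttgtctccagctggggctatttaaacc
For PPM1D, MDM4, RCHY1, COP1 and USP7 no match by this rule was found in the window searched. Sites with a mismatch at a core C or G, or with more than 2 mismatches, were not looked for in any of the genes. The bases in lower case, those of the MDM2 window included, may therefore hold further p53 sites. Binding was not measured in these data.

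Before any p53 was supplied the genes differed widely in level. Divided by the length of their exons, the pGFP libraries at 6 h gave CCNG1 108.1 ± 3.04 CPM per kb (SD, n = 3), MDM2 23.2 ± 1.67, USP7 22.8 ± 0.968, COP1 9.4 ± 0.06, RCHY1 5.45 ± 0.131, MDM4 4.72 ± 0.593 and PPM1D 2.62 ± 0.0448. The ranges of MDM2 and USP7 overlapped, at 21.9 to 25.1 and 21.8 to 23.8 CPM per kb, and so did those of RCHY1 and MDM4. Exon lengths come from GENCODE v44, which is later than the annotation used for counting. Some reads could belong to neighbours if counting ignored strand: 9.5% of the exon bases of MDM2 are shared with a lncRNA (ENSG00000257181) and 1.6% with CPM, the carboxypeptidase M gene, and 5.0% of those of RCHY1 with THAP6, all on the opposite strand. A processed pseudogene on the same strand covers another 5.3% of MDM2.

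**Figure D1:**
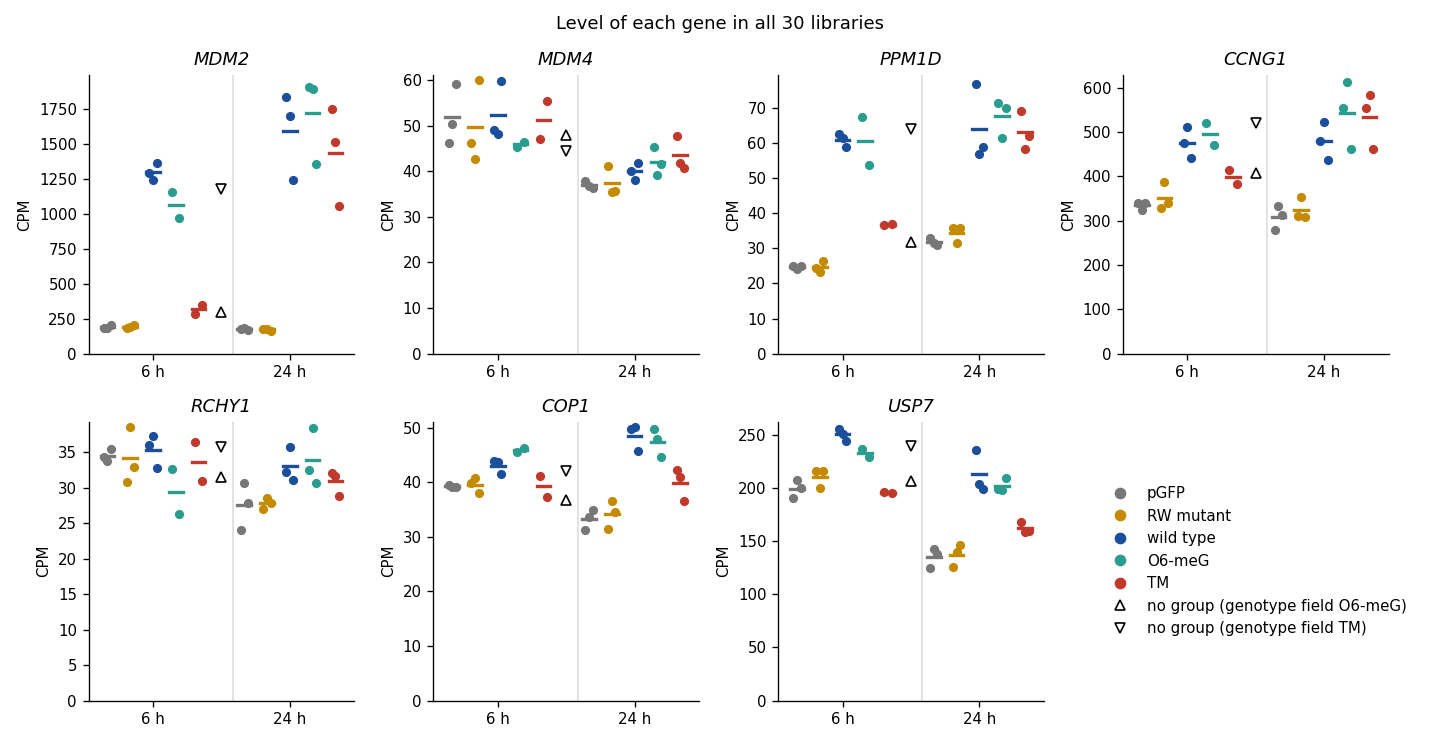
CPM of each of the 7 genes in all 30 libraries at 6 h and 24 h; points are libraries, bars are group means, and open triangles are the 2 libraries in no group, each placed beside the 6 h groups. MDM2 with wild type p53 lies between 1240.1 and 1832 CPM, while every pGFP and RW mutant library lies between 163 and 208 CPM.

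The comparison of wild type p53 with pGFP asks which of these genes respond when p53 appears in a cell that lacked it. At 6 h 4 of the 7 were higher (MDM2, PPM1D, CCNG1 and USP7) and none lower. At 24 h COP1 had joined them, making 5. MDM2 rose 6.74-fold at 6 h and 8.94-fold at 24 h, PPM1D 2.47-fold and 2.02-fold, and the others by no more than 1.58-fold. Changes were tested over all 21335 genes with the quasi-likelihood test of edgeR and Benjamini-Hochberg adjustment, and a gene was called at an adjusted P below 0.05 with no limit on the fold. By this rule 10.3% of all genes were called at 6 h (8.68% higher, 1.59% lower) and 35.0% at 24 h (20.5% higher, 14.5% lower). The median log2 change of the 7 was 0.33 at 6 h and 0.64 at 24 h, beside medians of 0.02 and 0.01 over all genes tested. The 7 were picked with earlier results of these data known, so these contrasts with all genes are a description only.

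MDM2 read 187, 182 and 208 CPM with pGFP at 6 h and 1289, 1241 and 1362 CPM with wild type p53. At 24 h the pGFP libraries read 177, 185 and 171 CPM, and the wild type libraries 1832, 1696 and 1240.1 CPM. The groups were far apart at both times, and the third wild type library at 24 h was the lowest of its group. The log2 fold change was 2.75 (SE 0.156, adjusted P = 3.2e-12, edgeR) at 6 h and 3.16 (SE 0.159, adjusted P = 1.6e-13) at 24 h. The rise at 24 h exceeded that at 6 h by 0.41 on the log2 scale, a difference that did not pass the test (adjusted P = 0.30). MDM2 was the gene with the 13th smallest P value in the transcriptome at 6 h and the 16th at 24 h.

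PPM1D, the phosphatase of the loop, was at 24.9, 24.2 and 24.9 CPM with pGFP and at 62.5, 61.3 and 58.9 CPM with wild type p53 at 6 h. At 24 h it was at 32.9, 31.4 and 30.9 CPM with pGFP and 76.7, 56.8 and 58.6 CPM with wild type p53. All wild type libraries lay above all pGFP libraries of their time. Of all genes tested, 31.5% at 6 h and 43.6% at 24 h had no overlap between these groups, in either direction. The log2 fold change was 1.30 (SE 0.0997, adjusted P = 5.4e-10) at 6 h and 1.01 (SE 0.0992, adjusted P = 1.0e-08) at 24 h.

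CCNG1, the most abundant of the 7 per kb before p53, rose by less. Its 6 h libraries read 340.2, 324 and 341 CPM with pGFP and 475, 510.2 and 441 CPM with wild type p53. Its 24 h libraries read 280.1, 333 and 313 CPM with pGFP and 480.1, 523 and 436 CPM with wild type p53. The wild type libraries were again above every pGFP library at both times. The log2 fold changes were 0.50 (SE 0.101, adjusted P = 0.00095) and 0.64 (SE 0.101, adjusted P = 1.7e-05).

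USP7 and COP1, a deubiquitinase and a ubiquitin ligase that act on p53, had larger estimated responses at 24 h than at 6 h. Whether these differences between the times passed the test depended on the fit. USP7 read 191, 208 and 199 CPM with pGFP at 6 h and 256, 251 and 244 CPM with wild type p53, then 125, 142 and 138 CPM against 236, 204 and 198 CPM at 24 h. Its wild type libraries were lower at 24 h than at 6 h, but so were its pGFP libraries, and to a greater extent. The log2 fold change of USP7 was 0.33 (SE 0.0686, adjusted P = 0.0015) at 6 h and 0.66 (SE 0.0691, adjusted P = 3.3e-08) at 24 h, and the difference between the times was 0.33 (SE 0.0971, adjusted P = 0.043).

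COP1 read 39.6, 39.2 and 39.1 CPM with pGFP and 43.9, 43.7 and 41.5 CPM with wild type p53 at 6 h, where its log2 fold change of 0.13 did not pass the test (adjusted P = 0.34). At 24 h the libraries read 31.2, 33.6 and 35.0 CPM against 49.7, 50.2 and 45.7 CPM. The 24 h groups were well separated, with a log2 fold change of 0.55 (SE 0.0715, adjusted P = 1.0e-06), and the response was larger than at 6 h by 0.42 (SE 0.101, adjusted P = 0.013). COP1 and USP7 were the members called for a response that differed between the times, and 6.51% of all genes were called in that test. The USP7 call was lost when any of 16 libraries was left out in turn, pGFP replicate 1 and wild type replicate 1 at 24 h among them (adjusted P up to 0.18), and without the filter on low counts neither difference passed (adjusted P = 0.16 for COP1 and 0.38 for USP7).

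RCHY1 and MDM4 were not called. RCHY1 lay at 34.3, 33.8 and 35.4 CPM with pGFP and 36.0, 37.3 and 32.8 CPM with wild type p53 at 6 h, and at 24.0, 30.7 and 27.9 CPM against 32.2, 35.7 and 31.1 CPM at 24 h. The 24 h groups did not overlap, as was so for 43.6% of all genes tested. The log2 fold change of 0.26 (95% interval 0.056 to 0.465) had an adjusted P of 0.055. The fit with a replicate block, which uses the pairing of the 24 h libraries, gave 0.26 with an adjusted P of 0.019. MDM4 ranged from 46.3 to 59.8 CPM over the pGFP and wild type libraries at 6 h. At 24 h its pGFP libraries (36.3 to 37.9 CPM) and wild type libraries (38 to 41.9 CPM) did not overlap either. Its log2 fold changes were 0.01 (95% interval -0.205 to 0.231) and 0.11 (-0.109 to 0.333), so that a rise of the size of CCNG1 lies outside both intervals.

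The RW mutant, a form of p53 that has lost sequence-specific transactivation, gave no called change in any of the 7 genes at 6 h or 24 h, and 0.00469% of all genes (1 gene) were called at each time. None of the 7 had an unadjusted P under 0.05 in edgeR, and the Wald test of DESeq2 also called none of them. MDM2 read 186, 188 and 203 CPM at 6 h and 178, 179.7 and 163 CPM at 24 h with the mutant, overlapping the pGFP libraries. The log2 differences of MDM2 were -0.00075 (95% interval -0.289 to 0.287) and -0.03 (-0.321 to 0.256). Over the other 6 genes and both times, the differences ran from -0.06 for MDM4 to 0.12 for PPM1D.

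**Figure D2:**
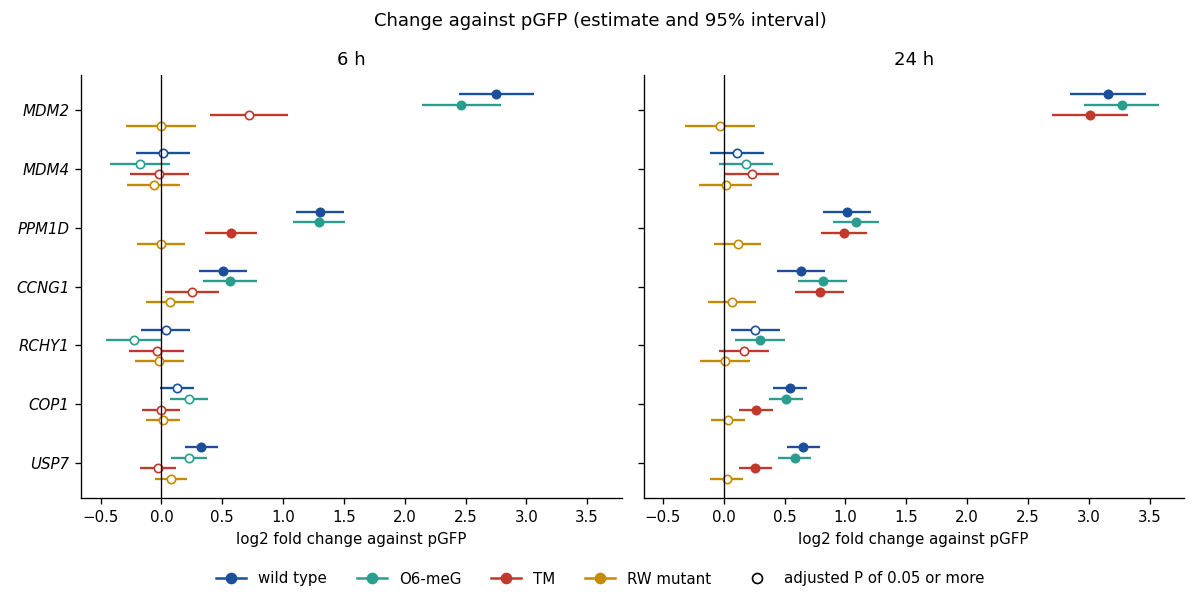
Log2 fold change of each gene against pGFP at 6 h and 24 h for each p53 vector, as the edgeR estimate with its 95% interval; filled points had an adjusted P below 0.05. MDM2 with p53 TM sits at 0.72 at 6 h and at 3.01 at 24 h, next to wild type p53 and p53 O6-meG at the later time.

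The lesion-bearing vector without O6-bzG was set beside pGFP and beside wild type p53. All comparisons with pGFP use the same control libraries, so their values are given side by side. With p53 O6-meG, 3 of the 7 genes were higher at 6 h (MDM2, PPM1D and CCNG1), where 4.85% of all genes were called, and 6 of the 7 (all but MDM4) at 24 h, where 29.5% were called. MDM2 read 1155 and 972 CPM at 6 h and 1904, 1886 and 1354 CPM at 24 h. These levels correspond to log2 changes of 2.46 (SE 0.164, adjusted P = 7.7e-11) and 3.27 (SE 0.16, adjusted P = 1.0e-13) against pGFP. RCHY1, with 32.5, 38.4 and 30.7 CPM at 24 h, had a log2 change of 0.30 (adjusted P = 0.033), a call lost when any of 8 libraries was left out in turn, pGFP replicates 1 and 3 at 24 h among them (adjusted P up to 0.22). It was also lost with DESeq2 size factors (adjusted P = 0.057), without the filter on low counts (0.21), with only the groups compared (0.12) and with DESeq2 (0.05), which leaves 5 of the 7.

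Directly against wild type p53, none of the 7 genes was called with p53 O6-meG at either time. Over all genes the test of edgeR called 0% at 6 h, with 2131 genes at an unadjusted P under 0.05, and 0.00937% (2 genes) at 24 h, while DESeq2 called 35 and 8 genes, none of the 7 among them. RCHY1 at 6 h was the member with an unadjusted P under 0.05 (32.6 and 26.3 CPM, log2 difference -0.26, adjusted P = 0.48). For MDM2 the difference was -0.29 (95% interval -0.61 to 0.0358) at 6 h and 0.11 (-0.177 to 0.396) at 24 h. Intervals of this width leave room for a moderate difference in either direction at 24 h.

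With p53 TM the number of genes called was larger at the late than at the early time. The p53 TM group had n = 2 at 6 h and n = 3 at 24 h, so these counts do not compare the times at equal power. At 6 h, 1 of the 7 was higher than with pGFP (PPM1D), where 0.202% of all genes were called. By 24 h 5 of the 7 were higher (MDM2, PPM1D, CCNG1, COP1 and USP7), where 10.7% were called. Compared directly with wild type p53, MDM2, PPM1D and USP7 were lower at 6 h (10.9% of all genes called), and COP1 and USP7 at 24 h (21.2% called). MDM2 was 4.09-fold lower than with wild type p53 at 6 h, and at 24 h its log2 difference was -0.15 with an adjusted P of 0.54.

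MDM2 read 286 and 349 CPM with p53 TM at 6 h. Both libraries lay above the highest pGFP library (208 CPM) and far below the lowest wild type library (1241 CPM). At 6 h the p53 TM libraries did not overlap those of pGFP in 26% of all genes tested, or those of wild type p53 in 40.5%. The log2 change against pGFP was 0.72 (95% interval 0.403 to 1.04, edgeR adjusted P = 0.069), a rise that missed the threshold here. It passed with DESeq2 (adjusted P = 0.0065). In edgeR it passed without the filter on low counts (0.0032), with the replicate block (0.029) and with only the groups compared (0.0077). With the libraries of conflicting titles placed by the first part of the title it passed (0.025), and by the genotype field it did not (0.12). Nor did it pass with DESeq2 size factors. The log2 difference from wild type p53 was -2.03 (SE 0.177, adjusted P = 1.7e-08), and that from p53 O6-meG was -1.74 (SE 0.184, adjusted P = 7.0e-07).

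At 24 h MDM2 with p53 TM read 1744, 1510.0 and 1053 CPM, within the spread of the wild type (1240.1 to 1832) and p53 O6-meG libraries (1354 to 1904) except for its lowest library. Its log2 change against pGFP was 3.01 (SE 0.158, adjusted P = 6.1e-13), and its difference from wild type p53 had a 95% interval of -0.433 to 0.14. MDM2 was lower with p53 TM than with wild type p53 in all 3 pairs of libraries with the same replicate number, and whether its difference is smaller than those of COP1 or USP7 was not tested. The difference between p53 TM and wild type p53 was therefore 1.88 higher at 24 h than at 6 h on the log2 scale (SE 0.224, adjusted P = 2.1e-05). In this test of a changing TM effect, 1.45% of all genes were called, MDM2 with the 11th smallest P value. Replicate 3 was the lowest at 24 h in the wild type, p53 O6-meG and p53 TM groups alike.

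PPM1D had the same order. It read 36.6 and 36.8 CPM with p53 TM at 6 h, between pGFP (24.2 to 24.9) and wild type p53 (58.9 to 62.5), and 69.0, 58.2 and 61.9 CPM at 24 h, within the wild type range. Against wild type p53 the log2 difference was -0.73 (SE 0.111, adjusted P = 4.7e-05) at 6 h and -0.02 (95% interval -0.213 to 0.168) at 24 h, and it moved by 0.71 between the times (SE 0.147, adjusted P = 0.0087). The rise over pGFP at 6 h was 0.57 (adjusted P = 0.015), and this call was lost when any of the 3 pGFP or 2 p53 TM libraries was left out (adjusted P up to 0.22). The change between the times was likewise lost when either p53 TM library of 6 h was left out (adjusted P up to 0.064), and with only the groups compared (0.073).

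CCNG1 read 415 and 383 CPM with p53 TM at 6 h, between the pGFP (324 to 341) and the wild type libraries (441 to 510.2). There was no overlap with either group, as in 26% and 40.5% of all genes tested. The CCNG1 difference from wild type p53, -0.25 on the log2 scale, did not pass the test (95% interval -0.475 to -0.0299, adjusted P = 0.19). At 24 h it read 554, 582 and 462 CPM, with a log2 change of 0.79 over pGFP (SE 0.102, adjusted P = 4.1e-06) and 0.15 over wild type p53 (adjusted P = 0.32).

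USP7 and COP1 were called below wild type p53 at 24 h. USP7 read 196 and 195 CPM with p53 TM at 6 h, inside the pGFP range of 191 to 208 CPM, and 168, 158 and 159 CPM at 24 h, between pGFP (125 to 142) and wild type p53 (198 to 236). The difference from wild type p53 was -0.36 (SE 0.0774, adjusted P = 0.0025) at 6 h and -0.39 (SE 0.0688, adjusted P = 0.00021) at 24 h, and it did not change detectably between the times (-0.04, 95% interval -0.241 to 0.163). COP1 read 42.2, 41.1 and 36.5 CPM at 24 h, below all 3 wild type libraries (45.7 to 50.2) and above all pGFP libraries (31.2 to 35.0). Of all genes tested at 24 h, 29.7% had no overlap between p53 TM and wild type p53, and 24.4% none between p53 TM and pGFP. The COP1 difference from wild type p53 was -0.28 (SE 0.0711, adjusted P = 0.0056), and its adjusted P was 0.05 without p53 TM replicate 3, 0.07 without the filter and 0.083 with only the groups compared. The rises of COP1 and USP7 over pGFP at 24 h were both 0.26 on the log2 scale (adjusted P = 0.016 and 0.013). Both calls were lost without pGFP replicate 1 or p53 TM replicate 1, and that of COP1 also without p53 TM replicate 2, with adjusted P values up to 0.11 and 0.094. Both were also lost with DESeq2 size factors, without the filter and with only the groups compared (adjusted P from 0.063 to 0.24).

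**Figure D3:**
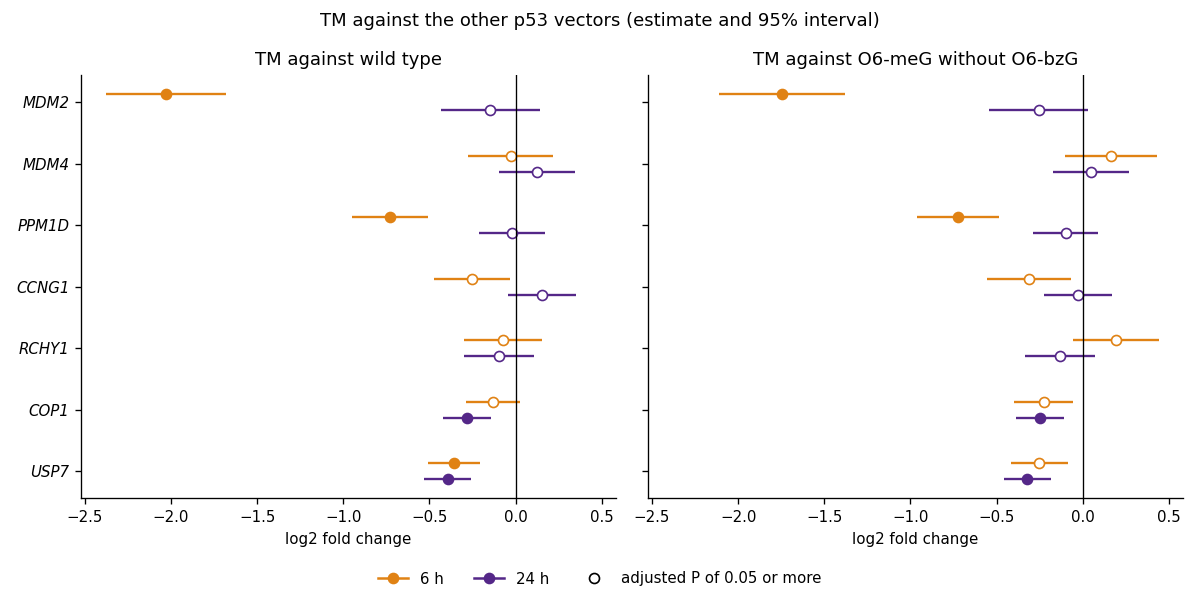
Log2 fold change of each gene with p53 TM against wild type p53 (left) and against p53 O6-meG without O6-bzG (right), as the edgeR estimate with its 95% interval; filled points had an adjusted P below 0.05. MDM2 moves from -2.03 at 6 h to -0.15 at 24 h against wild type p53, while USP7 stays at -0.36 and -0.39.

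Against p53 O6-meG, the same plasmid without the drug, MDM2 and PPM1D were lower with p53 TM at 6 h (4.1% of all genes called), and COP1 and USP7 at 24 h (10.0% called). The PPM1D difference at 6 h was -0.72 (SE 0.12, adjusted P = 0.00033). At 24 h the COP1 difference was -0.25 (adjusted P = 0.026) and the USP7 difference -0.32 (adjusted P = 0.0036), and that of MDM2 was -0.26 (95% interval -0.543 to 0.0305, adjusted P = 0.31). In a fit of only the groups compared, neither the COP1 nor the USP7 difference passed (adjusted P = 0.19 and 0.061). The COP1 call was also lost without the filter on low counts (adjusted P = 0.2). So it was with the libraries of conflicting titles placed by the genotype field (0.065), and when any of 4 libraries was left out in turn (up to 0.16). RCHY1 and MDM4 were not called in any comparison with p53 TM, where they read 36.4 and 30.9 CPM and 47.2 and 55.5 CPM at 6 h, and 28.9 to 32.1 CPM and 40.8 to 47.8 CPM at 24 h.

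These differences at 6 h depend on where the 2 libraries with conflicting titles belong. The library whose genotype field says p53 O6-meG read 301 CPM of MDM2, and the library whose genotype field says p53 TM read 1179 CPM. Each value lies near the group named in the first part of its title instead. With both libraries placed by the genotype field, the MDM2 difference between p53 TM and wild type p53 at 6 h was -1.10 (adjusted P = 0.13), none of the 7 genes was called in that comparison, and the change of the MDM2 effect between the times was 0.95 (adjusted P = 0.63). With both placed by the first part of the title the values were -2.06 (adjusted P = 8.9e-11) and 1.91 (adjusted P = 1.3e-06). The comparisons of wild type p53 or RW mutant p53 with pGFP do not involve these libraries.

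To put the genes on a common scale, the position of each library was expressed as a part of the rise from the pGFP mean (0%) to the wild type mean (100%) of its time, for the genes called higher with wild type p53. At 6 h the p53 TM libraries kept 11.3% ± 3.99 of the MDM2 rise (SD, n = 2), 33.3% ± 0.421 of the PPM1D rise, 45.6% ± 15.8 of the CCNG1 rise and -7.26% ± 1.2 of the USP7 rise. The genes thus differed in position within the same 2 libraries, MDM2 lying lower than PPM1D and CCNG1 in each. At 24 h the values were 89.1% ± 24.9 for MDM2 (n = 3), 96.9% ± 17 for PPM1D, 131% ± 36.8 for CCNG1, 43.7% ± 19.6 for COP1 and 34.5% ± 6.8 for USP7. All 3 libraries placed USP7 (29.9 to 42.3%) below MDM2 (62 to 111%). No test was run on these positions. The SDs leave out the spread of the pGFP and wild type libraries that set the scale. For USP7 at 6 h these had SDs of 16.6% and 11.6% (n = 3 each).

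The p53 O6-meG libraries lay closer to wild type p53. At 6 h they kept 78.8% ± 11.7 of the MDM2 rise (n = 2), 99.1% ± 26.6 of that of PPM1D, 114% ± 24.9 of that of CCNG1 and 66% ± 10.6 of that of USP7. At 24 h they kept between 86.5% ± 8.33 (USP7) and 137% ± 44.6 (CCNG1) of the 5 rises (n = 3). The RW mutant libraries averaged between -0.278% (MDM2) and 8.9% (CCNG1) at 24 h, and at 6 h reached 21.8% ± 18 for USP7.

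**Figure D4:**
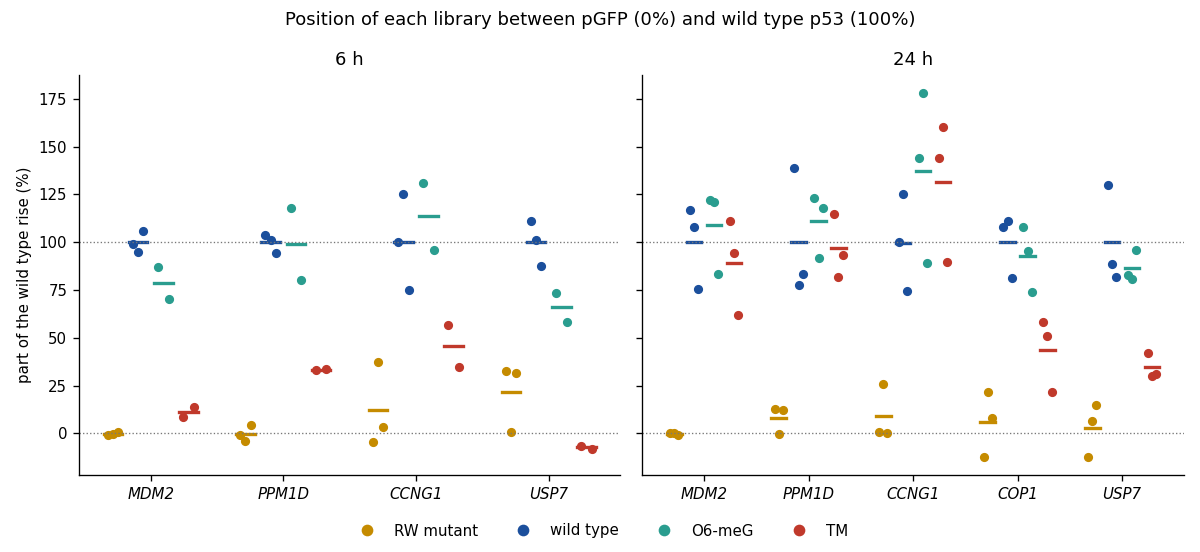
Position of each library, in percent, between the mean of pGFP (0%) and the mean of wild type p53 (100%) of the same time, for the genes called higher with wild type p53; points are libraries and bars are group means. The p53 TM libraries lie at 8.48 to 14.1% for MDM2 at 6 h and at 62 to 111% at 24 h, and at 29.9 to 42.3% for USP7 at 24 h.

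Genes that followed MDM2 across libraries were sought by Pearson's correlation of log2 CPM over the 28 grouped libraries, leaving out the gene on the vectors. The 5 nearest were TIGAR (r = 0.9954), a regulator of glycolysis, ACER2 (0.9951), an alkaline ceramidase, FDXR (0.9938), the ferredoxin reductase of mitochondria, PHLDA3 (0.9934), an inhibitor of AKT, and TNFRSF10D (0.9906), a decoy receptor for TRAIL. All 28 points share the 10 groups, so the coefficient describes the pattern across groups and has no P value. Of 21333 genes compared, 435 had r above 0.9. PHLDA3 was near the floor, with at most 0.0906 CPM with pGFP and 5.88 to 7.77 CPM with wild type p53 at 24 h. Its r therefore depends on the 0.5 CPM added before taking logarithms. The choice itself fixes an order over the groups like that of MDM2, with small differences: at 24 h the log2 difference between p53 TM and wild type p53 was 0.32 for PHLDA3 and -0.15 for MDM2. TIGAR, for example, read 42.8 to 44.8 CPM with pGFP, 57.4 to 59.8 with p53 TM and 155 to 168 with wild type p53 at 6 h, and 118 to 181 with p53 TM at 24 h.

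The other feedback genes were less like MDM2. PPM1D (r = 0.946) and CCNG1 (0.935) ranked 163 and 227 among all genes, COP1 (0.79) ranked 1355, USP7 (0.497) ranked 3915, RCHY1 (0.281) ranked 6133 and MDM4 (0.0527) ranked 9551. CDKN1A had r = 0.978 and rank 25. At 24 h CDKN1A with p53 TM read 368, 422 and 289 CPM, below the 513 to 788 CPM of wild type p53. The log2 difference was -0.77 (SE 0.153, adjusted P = 0.00074), and whether it differed from that of MDM2 was not tested.

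A further 52 genes of the pathway, in 5 groups by function, put the 7 in context for wild type p53 against pGFP. Of the 52, 4 were higher and 1 lower at 6 h, where 8.68% and 1.59% of all genes were called, and 13 were higher and 13 lower at 24 h, where 20.5% and 14.5% were called. The shares of the 52 higher at either time are thus near those of all genes. The share lower at 24 h was larger than that of all genes, a difference that was not tested. Among 18 other ubiquitin ligases and deubiquitinases of p53 or MDM2, 2 were higher and 1 lower at 6 h, and 4 were higher and 4 lower at 24 h. FBXO22, an F-box protein of a ubiquitin ligase that acts on p53, went from 64.1 to 66.3 CPM with pGFP to 146 to 149.7 CPM with wild type p53 at 6 h (log2 change 1.18, adjusted P = 6.2e-05). RNF144B, a RING ligase, rose by 0.92 at 6 h (adjusted P = 0.013) and 1.85 at 24 h (adjusted P = 1.2e-06), from a low level of 1.68 to 2.04 CPM to 5.48 to 7.42 CPM at 24 h. USP10, which deubiquitinates p53, was higher at 24 h (0.52, adjusted P = 2.8e-07), as was TOPORS, a ligase for ubiquitin and SUMO (0.50, adjusted P = 0.00017). SIAH1, a RING ligase named after its values were seen, was the gene that fell at 6 h (-0.39, adjusted P = 0.00091). The median over the 18 was 0.04 at 6 h and -0.08 at 24 h.

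None of the 11 genes for cyclin G2, its associated kinase and PP2A subunits was called at 6 h, and 3 were higher and 5 lower at 24 h. CCNG2, the relative of CCNG1, was lower at 24 h (log2 change -0.86, adjusted P = 3.6e-05), with 13.4 to 18.4 CPM for pGFP and 8.14 to 9.14 CPM for wild type p53. This was opposite to CCNG1. GAK, the cyclin G-associated kinase, was higher (0.43, adjusted P = 1.0e-06). The catalytic subunit PPP2CB and the regulatory subunit PPP2R5E of PP2A were higher as well, by 0.31 and 0.36, while 4 other subunits were lower by at most 0.27.

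Of the 7 kinases upstream of p53, several of them substrates of PPM1D, MAPK14 (p38α) and CHEK2 were higher at both times. MAPK14 changed by 0.29 at 6 h (adjusted P = 0.005) and 0.70 at 24 h (adjusted P = 1.3e-08). ATM and CHEK1 were lower at 24 h, by -0.41 (adjusted P = 0.00021) and -0.55 (adjusted P = 3.8e-06). Among 8 proteins that bind and restrain MDM2, none was called at 6 h. At 24 h NOP53, RPL11 and RPL26 were higher, by 0.35, 0.24 and 0.31, and NUMB was lower (-0.45, adjusted P = 8.1e-06). Among 8 partners of COP1 or USP7, none was called at 6 h, and at 24 h DDB1, the adaptor of the CUL4 ligase, was higher (0.36, adjusted P = 4.2e-05) and the histone chaperone DAXX lower (-0.30, adjusted P = 0.0041).

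**Figure D5:**
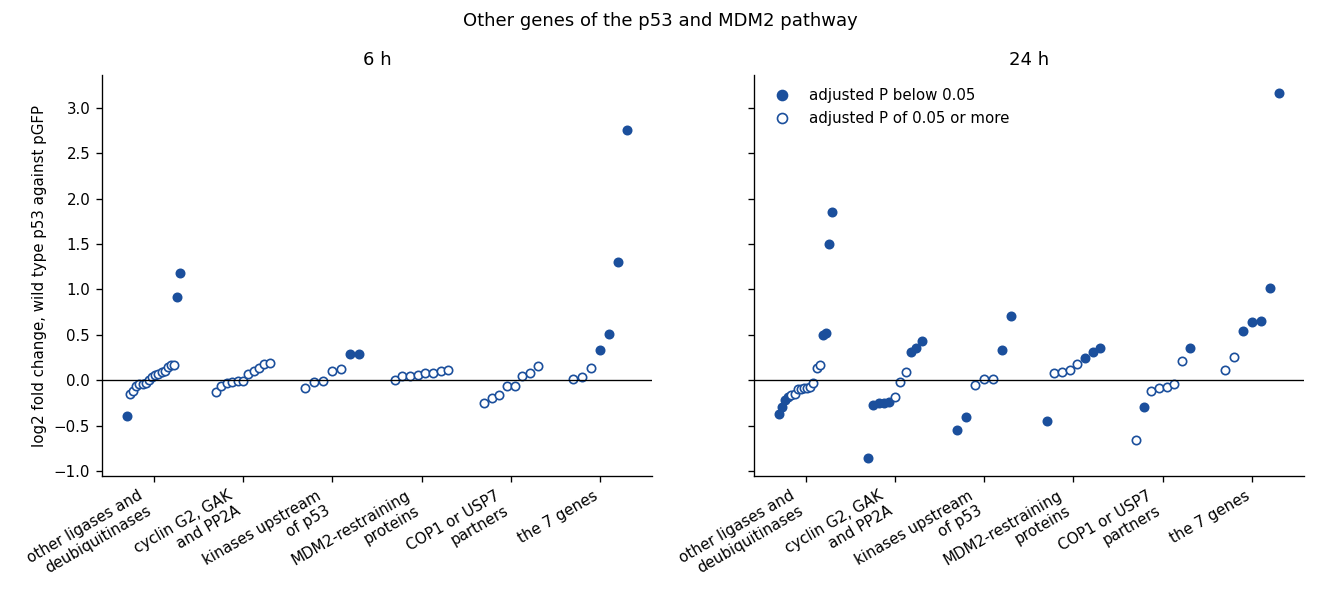
Log2 fold change of wild type p53 against pGFP at 6 h and 24 h for 52 other genes of the pathway, in 5 groups, and for the 7 genes; each point is a gene, and filled points had an adjusted P below 0.05. MDM2 (2.75 and 3.16) lies above every other gene shown, the nearest of the other groups being FBXO22 at 6 h (1.18) and RNF144B at 24 h (1.85).

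The same 52 genes were compared between p53 TM and wild type p53. At 6 h 4 of the 52 were lower with p53 TM and 2 higher, beside 8.14% and 2.77% of all genes, which are similar shares. FBXO22 (-0.87), RNF144B (-1.06), MAPK14 (-0.31) and CHEK2 (-0.41) were lower, and SIAH1 (0.43) and CCNG2 (0.57) were higher, with adjusted P values from 0.0011 to 0.029. The first 5 of these had moved the other way with wild type p53 against pGFP, a comparison that shares the wild type libraries. At 24 h 7 of the 52 were higher and 6 lower, beside 9.29% and 11.9% of all genes. The RW mutant changed none of the 52 at either time by the test of edgeR.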

How the data were processed

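Counts were the raw read counts per gene that the authors deposited, made from stranded total RNA by aligning single reads to hg38 with STAR 2.5.3a and counting on GENCODE v27 with featureCounts (Subread 1.5.2). Whether counting used strand is not given in the sources used here. A deposited table of normalized values was not used here. Members and gene lists were chosen with earlier results of these data known.

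Differential expression was computed by edgeR 4.0.16 (R 4.3.3) using filterByExpr, TMM, 1 fit of 10 groups over 28 libraries, and the quasi-likelihood test, adjusted by Benjamini-Hochberg. Intervals are the estimate ± 1.96 SE. DESeq2 1.42.0 was an alternative. The scripts were tested on simulated data. Genes named are the 7 members, CDKN1A, the 5 genes most like MDM2, and, per pathway list, up to 4 called genes with the smallest P values; SIAH1 was added after its values were seen. The marker CD3E had no match.

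Replicate numbers come from the titles. At 24 h all 30 pairs of libraries with the same number had correlated residuals above 0.1 (0.291 to 0.764), and at 6 h 14 of 23 did (-0.108 to 0.423). The fit behind the printed values has no replicate term. The replicate block was run as an alternative, and its value stands beside a 24 h result where it changed the call. Within groups, 26 pairs of libraries differed by 5.65 to 43.8 chi-square units per degree of freedom, and none was a duplicate.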

Additional observations from a re-analysis of the deposited data

Results flagged for a closer look

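The response to wild type p53 differed between 6 h and 24 h in COP1 by 0.42 and in USP7 by 0.33 (log2, edgeR adjusted P = 0.013 and 0.043). The difference between p53 TM and wild type p53 changed between the times in MDM2 by 1.88 and in PPM1D by 0.71 (adjusted P = 2.1e-05 and 0.0087). These were picked out by the test of the difference between the times. Without the filter on low counts COP1 and USP7 did not pass (edgeR adjusted P = 0.16 and 0.38). With the libraries of conflicting titles placed by the genotype field, the MDM2 and PPM1D changes were 0.95 and 0.39 (adjusted P = 0.63 and 0.72). The PPM1D call was also lost when either p53 TM library of 6 h was left out (up to 0.064).

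The 2 libraries in no group carried MDM2, PPM1D, CCNG1 or USP7 above every pGFP library of 6 h. The library with the p53 O6-meG genotype field read 301 CPM of MDM2, 31.7 of PPM1D and 408 of CCNG1, corresponding to 9.81%, 19.4% and 51.6% of the wild type rise. The library with the p53 TM genotype field read 1179 CPM of MDM2, 63.9 of PPM1D, 519 of CCNG1 and 239.6 of USP7, corresponding to 89.2%, 108%, 131% and 79.1%. No test was run on these single libraries. Groups of 2 or 3 libraries are too small for a test of outlying samples.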

How the results depend on the processing

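The alternatives were DESeq2 size factors within edgeR, no filter beyond at least 1 count, DESeq2, both groupings of the libraries with conflicting titles, a fit of the compared groups only, a replicate block, and each of the 28 libraries left out. Over the settings other than a left-out library, 743 of 784 log2 changes kept their side of the threshold. With a library left out, 3084 of 3136 did. None that was called in either fit changed sign. Changes that were not called could change sign, such as that of MDM4 for wild type p53 at 6 h (-0.095 to 0.116 with a library left out). The 4 members called for wild type p53 at 6 h were 4 under every alternative. Where a count moved, the cause was not tested. The number of libraries or genes differs between some fits: more genes enter without the filter, and more libraries enter with either grouping of the conflicting titles.

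With DESeq2 size factors, 3 members were called for p53 TM against pGFP at 24 h. Without the filter, members called were 2 and 3 for p53 TM against pGFP (6 h, 24 h), 1 against wild type p53 and 1 against p53 O6-meG at 24 h, and 0 for a wild type response that differs between times, while genes called for p53 O6-meG against wild type p53 were 24 and 0. With the replicate block, genes called were 1628 for p53 O6-meG against pGFP and 15 against wild type p53 at 6 h and 532 for a TM effect that differs between times, and members called were 2 for p53 TM against pGFP at 6 h, MDM2 joining (adjusted P = 0.029). The block also called RCHY1 for wild type p53 at 24 h, and COP1 for p53 O6-meG against pGFP and CCNG1 for p53 TM against p53 O6-meG at 6 h (adjusted P = 0.047 and 0.043), and changed no other call of a member.

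With both libraries placed by the genotype field, genes called at 6 h were 73 for p53 O6-meG and 17 for p53 TM against pGFP, 16 for p53 TM and 1 for p53 O6-meG against wild type p53, and 0 between p53 TM and p53 O6-meG. At 24 h they were 0 for p53 O6-meG against wild type p53 and 1356 for p53 TM against p53 O6-meG, and 14 for the change of the TM effect. Members called were 0 for p53 TM at 6 h against pGFP, wild type p53 or p53 O6-meG, 0 for the change of the TM effect, 1 for p53 TM against p53 O6-meG at 24 h and 1 for the change of the wild type response. The part of the MDM2 rise at 6 h was then 55.8% for p53 O6-meG and 37.3% for p53 TM, and that of USP7 for p53 TM turned to 21.5%. With both placed by the first part of the title, genes called were 66 for p53 TM against pGFP, 1 for p53 O6-meG against wild type p53 and 1732 for p53 TM against p53 O6-meG at 6 h, and 513 for the change of the TM effect. Members called were 2 and 4 for p53 TM against pGFP and p53 O6-meG at 6 h.

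With only the groups compared, genes called were 3565 for wild type p53 and 72 for p53 TM against pGFP at 6 h, 1184 for p53 TM against pGFP, 1768 against wild type p53 and 241 against p53 O6-meG at 24 h, 8 and 0 for p53 O6-meG against wild type p53, and 160 for the change of the TM effect. Members called were 2 and 3 for p53 TM against pGFP, 1 against wild type p53 and 0 against p53 O6-meG at 24 h, and 1 for each change between times. DESeq2 called 101 genes and 2 members for p53 TM against pGFP at 6 h, and 35 and 8 genes for p53 O6-meG against wild type p53.

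Leaving out a library gave 689 to 1130 genes for p53 O6-meG and 15 to 54 for p53 TM against pGFP at 6 h, 1377 to 2409 for p53 TM against pGFP at 24 h, 1124 to 2516 for p53 TM against wild type p53 at 6 h, 0 to 221 and 0 to 2 for p53 O6-meG against wild type p53, 407 to 986 and 1012 to 2585 for p53 TM against p53 O6-meG, 835 to 1757 for the change of the wild type response and 153 to 400 for that of the TM effect. The ends fell without pGFP replicate 3 at 6 h (689), p53 O6-meG replicate 1 at 6 h (221), p53 TM replicate 1 or 3 at 6 h (15, 1124, 407, 153), p53 TM replicate 1 or 3 at 24 h (1377, 1012) and pGFP replicate 1 at 24 h (835). Members called ranged from 0 to 2 and 3 to 5 for p53 TM against pGFP, and from 1 to 2 for p53 TM at 24 h against wild type p53 or p53 O6-meG and for both changes between times. The part of the USP7 rise kept by p53 TM at 6 h ranged from -17.1% to 0.879% (without pGFP replicate 1 or 2).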
